A study of Mus musculus with 6 samples.

Results

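The 10 genes described here belong to iron handling and were read from the raw count table of the liver tumors: the hormone gene Hamp and its copy Hamp2, the uptake genes Trf, Tfrc and Tfr2, the ferritin genes Fth1 and Ftl1, the exporter gene Slc40a1, and Bmp6 with Id1 from the BMP pathway that controls Hamp. They were taken by symbol, and 10 of 10 were among the 24063 genes listed and among the 13572 genes that passed the filter on low counts. The data are 6 libraries of male mice on the C57BL/6 background, 3 from WT (NR2E3+/+) and 3 from Nr2e3-/- liver tumors. All mice, controls included, had received diethylnitrosamine (DEN), a liver carcinogen, at 25 mg per kg by intraperitoneal injection at 15 days of age, and the tumors sequenced were those of the 24-week time point. The methods name a vendor for WT C57BL/6J mice and refer elsewhere for how the knockout was made. They do not call the genotypes littermates, so genotype and line history cannot be told apart. The question of the study was which genes differ in tumors that arise without NR2E3, an orphan nuclear receptor.

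Hepcidin, the peptide made from Hamp by hepatocytes, lowers plasma iron by binding ferroportin, the iron exporter encoded by Slc40a1, and sending it for degradation. Hamp transcription in liver has a pair of well-known inputs. One is BMP6, a ligand released mainly by sinusoidal endothelial cells, which acts through SMAD proteins and also induces Id1. The other is IL-6, which acts through STAT3 during inflammation. Inside cells, iron-regulatory proteins bind hairpins called iron responsive elements. Such a hairpin in the 5′ UTR, as in ferritin and ferroportin mRNA, blocks translation when iron is low, and hairpins in the 3′ UTR of Tfrc mRNA protect it from decay when iron is low.

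Total counts were between 15376261 and 28690279 per library, lowest in Nr2e3-/- replicate 1. Nr2e3 itself had 0 counts in every library. Taking 3 counts as the limit that a count of 0 allows, its level was below 0.105 to 0.195 CPM (a count divided by the library total and scaled to a fixed depth), and it gives no check of the genotype labels. Hepatocyte markers such as Alb summed to 136139 to 166529 CPM in WT and 130498 to 144365 CPM in Nr2e3-/- libraries. Nr2e3-/- replicates 1 and 2 had the lowest quality weights in limma-voom, 0.338 and 0.508, against 1.26 to 1.69 for the other libraries. All CPM values below were scaled by the TMM method of edgeR. P-values are from edgeR's quasi-likelihood F test, and adjusted p-values cover all 13572 genes tested.

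By edgeR 0 of the 10 genes passed an adjusted p-value of 0.05, a threshold that 0.0958% of all genes tested passed. At an unadjusted p-value under 0.05, 3 of the 10 were lower in Nr2e3-/- tumors (Bmp6, Id1 and Slc40a1), against 9.72% of all genes. Tfrc was the 1 gene that was higher at that threshold, against 11.8% of all genes. All 3 Nr2e3-/- libraries lay below all 3 WT libraries for 3 of the 10 genes, which was so for 12.9% of all genes. They lay above all WT libraries for 2 of the 10, Tfrc and Fth1, as for 13.9% of all genes. For single genes, 3 against 3 libraries cannot give an exact permutation p-value under 0.1, and each of these 5 genes was at that limit. The calls depended on the tool and on 1 library. DESeq2 called 4 of the 10 at an adjusted p-value under 0.05 (Tfrc, Bmp6, Slc40a1 and Id1), where it called 7.93% of all genes. Limma-voom with quality weights called 3 of the 10 (Bmp6, Slc40a1 and Id1), where it called 17.4% of all genes. Without Nr2e3-/- replicate 1, edgeR called Bmp6, Id1 and Tfrc, where it called 21.8% of all genes, so that share of the members was near the background.

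**Figure D1:**
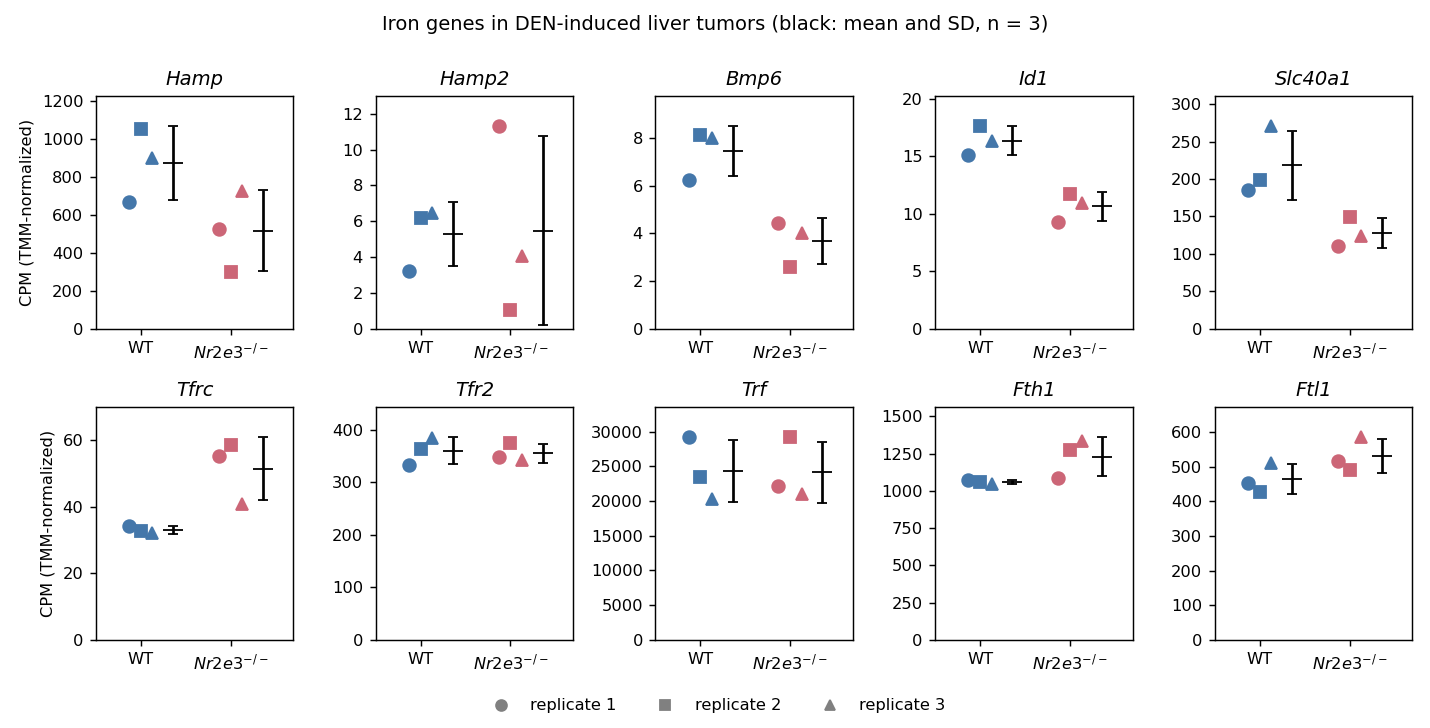
TMM-normalized CPM (linear axes from 0) of the 10 iron genes in each WT (blue) and Nr2e3-/- (red) tumor library, with marker shape for the replicate and black bars for the mean and SD of 3 libraries. Bmp6, Id1 and Slc40a1 are lower in every Nr2e3-/- library, Tfrc and Fth1 are higher in every one, and Hamp2 spreads from 1.04 to 11.3 CPM within Nr2e3-/- tumors.

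Hamp, which encodes hepcidin, had a lower mean in Nr2e3-/- tumors, with overlapping groups. The gene (ENSMUSG00000050440.8) lies on the minus strand at chr7:30942368-30944032 of GRCm38. WT replicates 1, 2 and 3 held 665, 1054 and 897 CPM of it, and Nr2e3-/- replicates 1, 2 and 3 held 526, 297 and 726 CPM. Nr2e3-/- replicates 1 and 2 lay below every WT library, and replicate 3 lay above WT replicate 1. The means were 872 ± 196 CPM (SD, n = 3) in WT and 516 ± 215 CPM (SD, n = 3) in Nr2e3-/- tumors, a difference of 40.8%. EdgeR put Hamp at a log2 fold change of -0.76 (SE 0.33, unadjusted p = 0.0529, adjusted p = 0.238), with a 95% interval from -1.53 to 0.01. Its size depended on single libraries. Without Nr2e3-/- replicate 2 the log2 fold change was -0.48, and without Nr2e3-/- replicate 3 it was -1.08. Over all 15 alternatives the sign of the change was the same and the adjusted p-value stayed between 0.149 and 0.50.

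Hamp2, a neighbouring copy of Hamp, varied more between Nr2e3-/- libraries than between the groups. Hamp2 (ENSMUSG00000056978.8, minus strand, chr7:30922372-30924681) had 3.23, 6.16 and 6.49 CPM in the WT libraries and 11.3, 1.04 and 4.06 CPM in Nr2e3-/- replicates 1, 2 and 3. The lowest and the highest library were both Nr2e3-/- tumors, 10.9 times apart. EdgeR put Hamp2 at a log2 fold change of 0.01 (SE 0.73, adjusted p = 0.992), and without Nr2e3-/- replicate 1 it was -1.09 (adjusted p = 0.214, over a range of 0.214 to 0.999 across alternatives). As a share of the counts of both genes, Hamp2 made up 0.483% to 0.718% in WT, 2.11% in Nr2e3-/- replicate 1, and 0.349% and 0.556% in replicates 2 and 3. The principal transcripts of Hamp (410 bases) and Hamp2 (437 bases) were identical at 88.8% of aligned positions, with a longest identical stretch of 87 bases, so some reads may have been counted on either gene. An antisense transcript, Gm44662, spans the exons of both genes in the GENCODE annotation but is not a row of the count table. The strand setting of the counting was not given in the sources used here. With both rows summed before the fit, the log2 fold change of Hamp was -0.75.

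The stretches just before the starts of Hamp and Hamp2 are shown because both known inputs of hepcidin act there. They are the 250 bases before the RefSeq start, 5′ to 3′ on the minus strand of GRCm38.p6, at chr7:30944030-30944279 for Hamp and chr7:30924182-30924431 for Hamp2. The window of Hamp2 lies inside the GENCODE span of the gene, which reaches 30924681, so these annotations place its start differently. Capitals mark matches to the STAT motif (TTCNNNGAA) and to the BMP response motif (GGCGCC), neither of which overlaps the other.
Hamp: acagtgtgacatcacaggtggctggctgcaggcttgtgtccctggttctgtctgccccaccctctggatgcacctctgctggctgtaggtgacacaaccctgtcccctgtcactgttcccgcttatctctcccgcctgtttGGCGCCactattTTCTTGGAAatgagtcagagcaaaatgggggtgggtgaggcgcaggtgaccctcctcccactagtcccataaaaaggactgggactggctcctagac
Hamp2: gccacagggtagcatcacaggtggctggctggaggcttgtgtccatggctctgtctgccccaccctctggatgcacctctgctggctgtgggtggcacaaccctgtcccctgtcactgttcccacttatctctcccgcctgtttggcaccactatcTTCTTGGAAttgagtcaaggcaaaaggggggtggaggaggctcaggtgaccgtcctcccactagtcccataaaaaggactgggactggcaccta

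The sequences were identical at 89.7% of aligned positions. Both held the STAT motif, from base -97 to -89 before the start in Hamp and from -94 to -86 in Hamp2. The BMP response motif was found in Hamp alone, from base -109 to -104. Both motifs and the E-box CACGTG, which was searched as well and found in neither, read the same on both strands. Of the 32851 promoter windows in the RefSeq table, 7.02% held the STAT motif, 9.59% the BMP response motif, 6.02% the E-box and 0.368% both of the first ones. Of the other members with a window in the table, 1 of 2 windows of Tfrc held the BMP response motif and the window of Bmp6 held the E-box. Tfr2, Fth1 and Ftl1 held none of the 3 motifs. Trf, Slc40a1 and Id1 were not matched in that table.

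**Figure D2:**
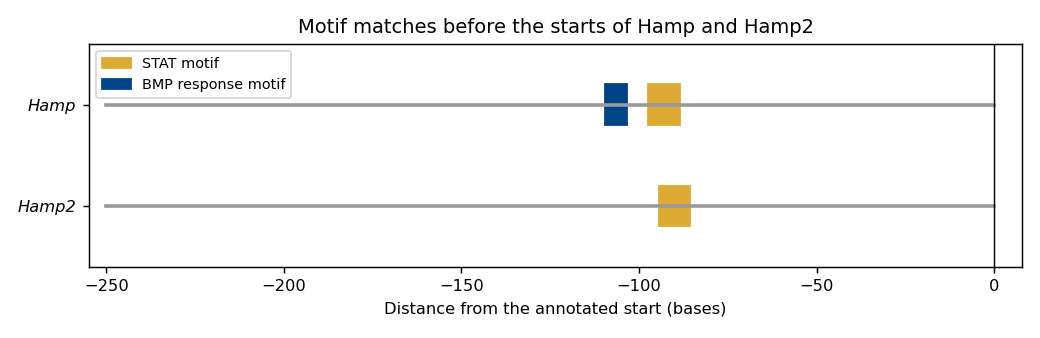
Positions of motif matches in the 250 bases before the RefSeq starts of Hamp and Hamp2, as distance from the start in bases. Hamp has a BMP response motif (blue, -109 to -104) beside a STAT motif (yellow, -97 to -89), and Hamp2 has the STAT motif only (-94 to -86).

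Bmp6, the ligand of the iron-sensing input, had a lower level in each Nr2e3-/- library, at low counts. Bmp6 (ENSMUSG00000039004.6, plus strand, chr13:38345107-38500302) was measured at 6.22, 8.12 and 7.98 CPM in WT and at 4.44, 2.599 and 4.002 CPM in Nr2e3-/- libraries. The groups did not overlap, and Nr2e3-/- replicate 2, the library lowest in Hamp, was also lowest in Bmp6. The means were 7.44 ± 1.06 CPM (SD, n = 3) and 3.68 ± 0.960 CPM (SD, n = 3), resting on 67 to 240 counts per library. EdgeR put Bmp6 at a log2 fold change of -1.03 (SE 0.24, unadjusted p = 0.00349, adjusted p = 0.109), with a 95% interval from -1.60 to -0.46. It ranged from -1.18 to -0.82 over 14 alternatives, all with an unadjusted p-value under 0.05, and adjusted p-values from 0.0074 to 0.341. Exons of Txndc5 on the opposite strand overlap those of Bmp6 by 224 bases. Txndc5 had a log2 fold change of 0.22.

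Sinusoidal endothelial cells are a main source of Bmp6 in liver, so their markers were set beside it. The summed level of 10 markers of these cells was between 503 and 515 CPM in WT and between 425 and 513 CPM in Nr2e3-/- libraries, and 5 of 10 had a positive change. The 3 lowest p-values of the list were those of Lyve1, a hyaluronan receptor (log2 fold change 0.82), Kdr, the VEGF receptor of endothelium (-0.61), and Gpr182 (0.31). In bulk tumor, fewer cells of a type and less RNA per cell cannot be told apart, and the part of endothelial content in the Bmp6 difference was not tested.

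Id1, a transcription regulator induced by BMP signaling in hepatocytes, was lower in each Nr2e3-/- library. Id1 (ENSMUSG00000042745.9, plus strand, chr2:152736251-152737410) had 15.1, 17.6 and 16.3 CPM in WT and 9.27, 11.7 and 10.9 CPM in Nr2e3-/- tumors. The groups did not overlap, and the spread within each was small, at a ratio of highest to lowest of 1.17 in WT and 1.27 in Nr2e3-/- tumors. EdgeR put Id1 at a log2 fold change of -0.62 (SE 0.14, unadjusted p = 0.00268, adjusted p = 0.102), and its 95% interval ran from -0.94 to -0.29. The lowest Id1 level was in Nr2e3-/- replicate 1 rather than in replicate 2, where Hamp and Bmp6 were lowest. The value ranged from -0.73 to -0.52 over 14 alternatives, with adjusted p-values from 0.0116 to 0.34.

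The other genes of the BMP and iron-sensing input showed no common direction. The counts of this and the following lists stand against 11.8% higher and 9.72% lower of all genes at an unadjusted p-value under 0.05. At the adjusted threshold they stand against 7.93% of all genes for DESeq2, 17.4% for limma-voom and 21.8% for edgeR without Nr2e3-/- replicate 1. Of 25 such genes, 23 were tested, and their median log2 fold change was 0.00, beside 0.01 for all genes tested. With an unadjusted p-value under 0.05, 1 was higher and 2 were lower. By edgeR 0 passed the adjusted threshold, while DESeq2 called 1 lower (Smad9) and limma-voom 1 higher (Smad1) and 2 lower (Smad9 and Hfe2). The 3 with the lowest p-values were Smad9 (log2 fold change -1.41, adjusted p = 0.1002 from edgeR), Smad7 (-0.61, adjusted p = 0.168) and Smad1 (0.71, adjusted p = 0.227). Smad1 and Smad9 are SMADs that BMP receptors phosphorylate, and Smad7 is a feedback inhibitor that BMP signaling induces. Smad9 had 20.2, 21.8 and 38.0 CPM in WT and 11.8, 6.94 and 11.5 CPM in Nr2e3-/- libraries, without overlap. Smad7 had 12.8, 20.2 and 20.9 CPM in WT and 13.1, 11.2 and 11.1 CPM in Nr2e3-/- libraries, and WT replicate 1 lay below Nr2e3-/- replicate 1. The following genes were picked by role after their values had been seen. Id2 and Id3, relatives of Id1, had log2 fold changes of 0.03 (SE 0.32) and -0.00 (SE 0.27), and their groups overlapped. Id2 had 163 to 194 CPM in WT and 96.5, 179 and 260 CPM in Nr2e3-/- replicates 1, 2 and 3. Id3 had 47.3 to 53.5 CPM in WT and 30.2, 53.9 and 68.3 CPM in those replicates. Smad6 and Bambi had log2 fold changes of -0.30 and -0.50 with overlapping groups. Of the 23 tested genes, 12 were positive and 11 negative. Hfe, the hemochromatosis protein, had 0.13, and Tmprss6, the protease that dampens hepcidin, had -0.03. Hemojuvelin, the BMP co-receptor listed by its older symbol Hfe2, had 47.6 to 56.1 CPM in WT and 71.5, 22.6 and 24.6 CPM in Nr2e3-/- replicates 1, 2 and 3. Without Nr2e3-/- replicate 1, edgeR called 2 higher (Smad1 and Fkbp1a) and 2 lower (Smad9 and Hfe2) at an adjusted p-value under 0.05, 4 of 23 where 21.8% of all genes were called. Fkbp1a was named after its values had been seen.

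Genes of the IL-6 and STAT3 input had a positive median in Nr2e3-/- tumors. Of 12 genes, 11 were tested. The median of their log2 fold changes was 0.64, but 0.30 without Nr2e3-/- replicate 2 and 0.94 without Nr2e3-/- replicate 1. By edgeR 5 were higher and 1 lower at an unadjusted p-value under 0.05. By edgeR 0 of the 11 passed the adjusted threshold. DESeq2 called 3 higher and 1 lower, limma-voom 4 higher and 1 lower, and edgeR without Nr2e3-/- replicate 1 called 7 higher and 1 lower. Il6ra, the IL-6 receptor chain, had 36.9, 40.5 and 47.0 CPM in WT and 78.5, 68.5 and 99.2 CPM in Nr2e3-/- libraries (log2 fold change 0.98, adjusted p = 0.0930 from edgeR). Stat3 had a log2 fold change of 0.86 (adjusted p = 0.111), and Il6st, the shared receptor chain gp130, one of 0.81 (adjusted p = 0.138). Il6 itself, named by role, had 0 to 3 counts per library and was not tested. Socs3, a feedback inhibitor induced by STAT3, was chosen after its values had been seen. It had 11.7, 9.85 and 10.6 CPM in WT and 5.30, 96.5 and 54.0 CPM in Nr2e3-/- replicates 1, 2 and 3.

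Acute phase genes, which like Hamp can respond to IL-6, were positive in 12 of 12 cases, with a median log2 fold change of 1.23. Of these, 9 were higher at an unadjusted p-value under 0.05 and 0 at the adjusted one by edgeR, against 5 by DESeq2 and 8 by limma-voom. Without Nr2e3-/- replicate 1 edgeR called 10, and without replicate 2 or 3 it gave 5 at the unadjusted threshold. Saa2 (log2 fold change 5.34), Saa1 (4.54) and Orm3 (2.75) had the lowest p-values. Saa1, a serum amyloid gene, had 19.9 to 49.3 CPM in WT and 138, 1028 and 1090 CPM in Nr2e3-/- replicates 1, 2 and 3. Saa1 and Saa2 are near-identical copies, and reads may have been counted on either. Hamp lay below its WT mean in each Nr2e3-/- library. In replicate 2, Socs3 stood at 8.99 times and Saa1 at 31.7 times their WT means, while Hamp stood at 0.340 times and Bmp6 at 0.349 times theirs. In replicate 3, Socs3 stood at 5.03 times, Saa1 at 33.6 times, Hamp at 0.832 times and Bmp6 at 0.538 times their WT means. In replicate 1, Socs3 stood at 0.493 times, Saa1 at 4.26 times, Hamp at 0.604 times and Bmp6 at 0.596 times their WT means. The ratio of Hamp to Bmp6 CPM was between 107 and 130 in WT and was 119, 114 and 181 in Nr2e3-/- replicates 1, 2 and 3, so replicates 1 and 2 lay inside the WT range.

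**Figure D3:**
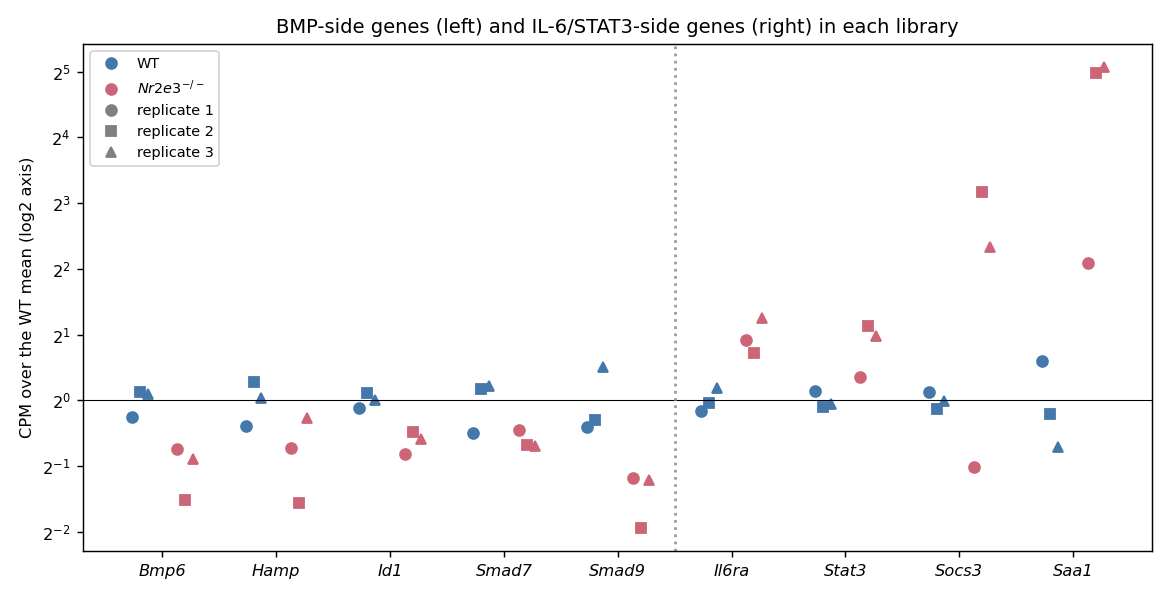
CPM of each library divided by the WT mean of the gene, on a log2 axis, with WT in blue, Nr2e3-/- in red and marker shape for the replicate. Hamp and selected genes of the BMP side stand left of the dotted line, and selected genes of the IL-6/STAT3 side and Saa1 right of it. The selection does not stand for the whole lists. Of the tested genes, 12 were positive and 11 negative in the BMP and iron-sensing list, and 7 and 4 in the IL-6 and STAT3 list. In Nr2e3-/- replicate 2 (red squares), Hamp and Bmp6 lie near 0.34 and 0.35 of the WT mean while Socs3 and Saa1 lie at 8.99 and 31.7 times it.

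Among all genes tested, the 5 nearest to Hamp by pattern over the 6 libraries were Ctse, Pllp, Retsat, Tmem38a and Wscd1. Several of them were low: Ctse had 0.19 to 0.68 CPM, Wscd1 0.19 to 1.05 CPM and Tmem38a 0.93 to 2.53 CPM. Pllp had 2.97 to 11.8 CPM and Retsat 182 to 458 CPM. Nearness was the root mean square difference of log2 CPM centred on the mean of each gene, and it was 0.17 for Ctse and 0.22 for Wscd1. Of the members, Bmp6 was the nearest to Hamp, at place 13 of 13571 with a distance of 0.25, and Hamp2 stood at place 10904 with a distance of 0.80. Id1 stood at place 1149. This is a description of 6 libraries that also share the genotype difference, and no test was made of it.

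Slc40a1, which encodes ferroportin, the target of hepcidin, was lower in each Nr2e3-/- library at the level of mRNA. Slc40a1 (ENSMUSG00000025993.10, minus strand, chr1:45908068-45926523) had 185, 199 and 271 CPM in WT and 111, 150 and 124 CPM in Nr2e3-/- tumors. The groups did not overlap. The means were 218 ± 46.1 CPM (SD, n = 3) and 128 ± 20.0 CPM (SD, n = 3), a difference of 41.4%. EdgeR put Slc40a1 at a log2 fold change of -0.77 (SE 0.18, unadjusted p = 0.00388, adjusted p = 0.111), with a 95% interval from -1.20 to -0.34. It ranged from -0.90 to -0.59 over 14 alternatives, with adjusted p-values from 0.0074 to 0.365. Hepcidin acts on the ferroportin protein, which was not measured here.

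Kupffer cells, the macrophages of liver, express much ferroportin. Their 10 markers summed to 381 to 475 CPM in WT and to 329, 824 and 435 CPM in Nr2e3-/- replicates 1, 2 and 3, with a positive change for 10 of 10 markers and an unadjusted p-value under 0.05 for 0 by edgeR, DESeq2 or limma-voom. The median log2 fold change of the markers was 0.27, and -0.21 without replicate 2. The part of macrophage content in the Slc40a1 difference was not tested.

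Tfrc, which encodes the transferrin receptor that brings iron into cells, was the member with the largest positive change. Tfrc (ENSMUSG00000022797.16, plus strand, chr16:32608920-32632794) had 34.4, 32.6 and 32.1 CPM in WT and 55.2, 58.5 and 40.7 CPM in Nr2e3-/- libraries. The groups did not overlap, and the WT libraries were within 1.07 times of each other. The means were 33.1 ± 1.16 CPM (SD, n = 3) and 51.5 ± 9.46 CPM (SD, n = 3), a ratio of 1.56. EdgeR put Tfrc at a log2 fold change of 0.64 (SE 0.15, unadjusted p = 0.00332, adjusted p = 0.109), with a 95% interval from 0.29 to 0.99. Over 14 alternatives it ranged from 0.46 to 0.79, with adjusted p-values from 0.0074 to 0.337. Young red cells also carry this receptor. Red cell markers summed to 142 to 202 CPM in WT and 229 to 323 CPM in Nr2e3-/- libraries, without overlap, and 5 of 5 tested markers had a positive change. Hba-a1 and Hba-a2 held identical counts and so are not separate values. Alas2, the heme synthesis enzyme of red cells, reached 124 CPM in Nr2e3-/- replicate 1. The part of red cell content in the Tfrc difference was not tested.

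Transferrin and the second transferrin receptor were measured at nearly equal means in both groups. Trf (ENSMUSG00000032554.15, minus strand, chr9:103204001-103230444), which encodes the iron carrier of plasma, had 20308 to 29216 CPM in WT and 21054 to 29195 CPM in Nr2e3-/- libraries. It took 2.01% to 3.01% of all counts. Its log2 fold change was -0.01, with a 95% interval from -0.53 to 0.51, so changes within that interval were not excluded. Another gene model on the same strand in GENCODE, Gm20425, covers 2434 bases of the exons of Trf, but it is not a row of the count table. Tfr2 (ENSMUSG00000029716.13, plus strand, chr5:137569840-137587481), a hepatocyte sensor of iron-loaded transferrin, had 332, 363 and 384 CPM in WT and 348, 375 and 342 CPM in Nr2e3-/- libraries. Its log2 fold change was -0.02, with a 95% interval from -0.28 to 0.24, the narrowest of the 10. The ratio of Tfrc to Tfr2 CPM within a library was 0.0838 to 0.103 in WT and 0.119 to 0.159 in Nr2e3-/- tumors.

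The ferritin genes, whose products store iron, had small positive changes that did not pass the test. Fth1 (ENSMUSG00000024661.7, plus strand, chr19:9980598-9985098), the heavy chain, had 1073, 1059 and 1048 CPM in WT and 1085, 1271 and 1335 CPM in Nr2e3-/- libraries. The groups did not overlap, but Nr2e3-/- replicate 1 was only 1.02 times the WT mean. EdgeR put Fth1 at a log2 fold change of 0.21 (SE 0.13, adjusted p = 0.353), with a 95% interval from -0.08 to 0.51. Ftl1 (ENSMUSG00000050708.16, minus strand, chr7:45457944-45459884), the light chain, had 453, 426 and 512 CPM in WT and 518, 489 and 585 CPM in Nr2e3-/- libraries. EdgeR put Ftl1 at a log2 fold change of 0.19 (SE 0.13, adjusted p = 0.402), with overlapping groups. The ratio of Fth1 to Ftl1 CPM was 2.05 to 2.48 in WT and 2.10 to 2.597 in Nr2e3-/- tumors. The copy Ftl1-ps1, which shares a stretch of 524 bases with Ftl1, is not a row of the count table, so its reads may have been counted on Ftl1 or dropped.

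Iron responsive elements were searched in 4 of the 10 members, chosen beforehand: Fth1, Ftl1, Slc40a1 and Tfrc. The other members were not searched. The elements are shown because their position sets how iron acts on the mRNA. A stem-loop was taken as a C, 5 bases, the loop CAGTGN and 5 bases pairing with the first 5 (G with T allowed), in the UTRs of the principal GENCODE M21 transcripts. The 5′ UTRs of Fth1, Ftl1 and Slc40a1 held 1 each, and the 3′ UTR of Tfrc held 4, of which the first is printed. They lie at chr19:9982732-9982760 (plus strand), chr7:45459779-45459807 (minus), chr1:45925465-45925493 (minus) and chr16:32631219-32631247 (plus). Sequences run 5′ to 3′ along the mRNA, and capitals mark the bulged C and the loop.
Fth1: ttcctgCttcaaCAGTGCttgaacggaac
Ftl1: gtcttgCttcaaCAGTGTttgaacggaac
Slc40a1: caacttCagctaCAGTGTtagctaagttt
Tfrc: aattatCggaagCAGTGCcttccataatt

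The mRNA with the hairpins in its 3′ UTR, Tfrc, had a log2 fold change of 0.64, and those with a hairpin in the 5′ UTR had 0.21 (Fth1), 0.19 (Ftl1) and -0.77 (Slc40a1). The iron-regulatory proteins themselves, Aco1 and Ireb2, were measured in a list of 14 genes with the makers of iron-sulfur clusters. All 14 were tested, with log2 fold changes from -0.16 to 0.12 and a median of -0.06, and 0 had an unadjusted p-value under 0.05 by edgeR, DESeq2 or limma-voom. The 3 with the lowest p-values were the cluster assembly genes Isca2 (-0.12) and Nfu1 (-0.14) and Ireb2 (-0.16). Aco1, named after its values had been seen, had -0.10.

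**Figure D4:**
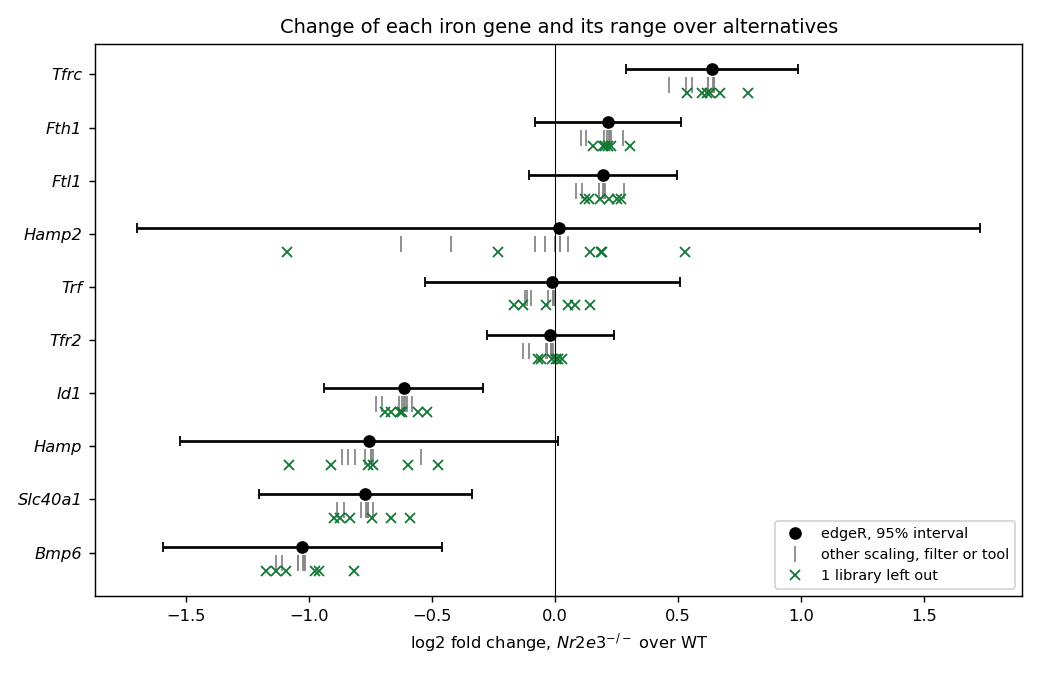
Log2 fold change (Nr2e3-/- over WT) of each of the 10 genes, as the edgeR value with its 95% interval (black), the values under other scalings, filters or tools (gray bars) and those with 1 library left out (green crosses). Bmp6, Slc40a1 and Id1 stay below 0 and Tfrc stays above 0 in every alternative, while Hamp2 spreads from -1.09 to 0.53.

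Compared per kilobase of transcript, the means of Hamp and Fth1 stood in a different order in each group, with overlap in Nr2e3-/- tumors. In WT tumors the order of mean CPM per kilobase was Trf (9471), Hamp (2127), Fth1 (1141), Ftl1 (479), Tfr2 (123), Slc40a1 (64.8), Id1 (17.5), Hamp2 (12.1), Tfrc (6.76) and Bmp6 (2.07). No neighbours in that order overlapped over the 3 WT libraries. In Nr2e3-/- tumors Hamp (723 to 1770 CPM per kilobase, mean 1259) overlapped Fth1 (1168 to 1437, mean 1324). There Id1 (9.92 to 12.6), Tfrc (8.33 to 11.97) and Hamp2 (2.38 to 25.9) overlapped each other as well.

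Other genes of iron import, export and reduction differed in both directions. Of 20 genes, 17 were tested. Their median log2 fold change was 0.11, but -0.04 without Nr2e3-/- replicate 2 and -0.0075 without Nr2e3-/- replicate 3. At an unadjusted p-value under 0.05, 5 were higher and 3 lower. The 3 lower were Heph (log2 fold change -0.73), Steap3 (-0.48) and Slc39a8 (-0.45), named after their values had been seen. By edgeR 0 passed the adjusted threshold, while DESeq2 called 4 higher (Scara5, Steap4, Slc39a14 and Slc11a2) and limma-voom 5 higher and 3 lower. Scara5, a ferritin receptor, had 9.06, 9.34 and 9.92 CPM in WT and 46.7, 22.8 and 51.8 CPM in Nr2e3-/- libraries (log2 fold change 2.10, adjusted p = 0.0757 from edgeR). Steap4, a metalloreductase induced in inflammation, had 304, 416 and 230 CPM in WT and 571, 2138.5 and 1506 CPM in Nr2e3-/- replicates 1, 2 and 3 (log2 fold change 2.15, adjusted p = 0.1002). Slc39a14, the hepatocyte transporter for iron that is not bound to transferrin, had a log2 fold change of 1.10 (adjusted p = 0.1002), and its groups did not overlap. Slc11a2, which encodes the iron transporter DMT1 and was named after its values had been seen, had 29.96 to 36.5 CPM in WT and 42.3, 92.0 and 75.5 CPM in Nr2e3-/- replicates 1, 2 and 3. At the adjusted threshold, edgeR called 4 higher and 3 lower without Nr2e3-/- replicate 1. Without Nr2e3-/- replicate 2 it called Scara5 (adjusted p = 0.00394), among 18 genes called in all.

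**Figure D5:**
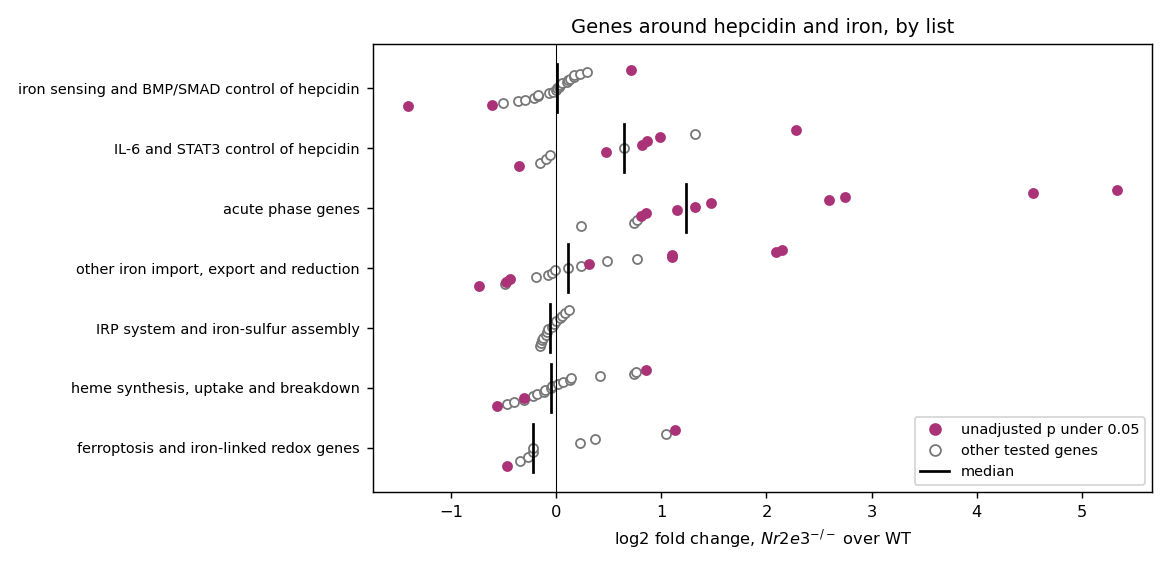
Log2 fold change (Nr2e3-/- over WT) of every tested gene in 7 lists around hepcidin and iron, with filled points for an unadjusted p-value under 0.05 and a black bar at the median. The medians are 1.23 for acute phase genes and 0.64 for IL-6 and STAT3 genes, and between -0.22 and 0.11 for the other lists. The IL-6 and STAT3 median is 0.30 without Nr2e3-/- replicate 2.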

How the data were processed

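The authors prepared TruSeq libraries, aligned single-end reads to mm10 (GRCm38) with TopHat and deposited raw counts per gene symbol from featureCounts. The strand setting, the annotation and the versions of TopHat and featureCounts are not given in the sources used here. The deposited normalized table and the authors' DESeq2 comparison table (fold changes, p-values) were not used. In the count table, 27 rows, with 0.1597% of all counts, carry dates in place of gene symbols. They stayed in the fits and none is named. Total counts per library were 15376261 to 28690279, and limits from counts cover counting error only.

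Samples were grouped by title. Counts were filtered with filterByExpr (minimum count 10, total 15), scaled by TMM and tested between genotypes, two-sided, with the quasi-likelihood F test of edgeR 4.0.16 in R 4.3.3, with Benjamini-Hochberg adjustment over all 13572 genes. A standard error is the log2 fold change over the root of F, and intervals use the t distribution with the degrees of freedom of the fit. Log2 CPM used a prior count of 2. Exact permutation tests were run with scipy 1.17.1 and figures with matplotlib 3.10.9. Alternatives were other scalings and filters, DESeq2 1.42.0, limma-voom (limma 3.58.1), a replicate block, leaving out each library, and summing Hamp with Hamp2. The fits were tested on simulated counts. P-values measure only the spread between the 3 libraries of a group. In the edgeR, DESeq2 and limma-voom fits, the estimate of that spread for each gene also drew on the other genes.

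Members and lists were chosen by name with earlier results of these data known. The genes named are the members, the 3 genes of lowest p-value in each list, the 5 genes nearest to Hamp, genes called when a setting called 5 or fewer of a list, cell type markers, and those said to have been picked later. Genes outside the first 3 kinds were picked after their values had been seen. Lists were written from general knowledge, and some genes stand in more than 1. Positions and transcripts come from GENCODE M21 and promoters from RefSeq (GRCm38.p6). Lengths are those of the principal transcripts, which may differ from the models the authors counted.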

Additional observations from a re-analysis of the deposited data

How the results depend on the processing

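The number of genes with an adjusted p-value under 0.05, 13 by edgeR, was 70 with no filter beyond 1 count, 7 with at least 10 counts in every library, 8 with upper quartile scaling, 8 with library totals alone, 1093 with DESeq2 and 2360 with limma-voom. Leaving out 1 library gave 0 to 3022. It was 3022 without Nr2e3-/- replicate 1, 0 without WT replicate 1, WT replicate 3 or Nr2e3-/- replicate 3, and 2 without WT replicate 2. The causes were not tested. Same-numbered libraries of the 2 groups did not all deviate together (r = -0.0766, 0.221 and 0.0234 across genes, which are not independent). With 3 libraries per group, these values cannot tell whether libraries of the same number were processed together. With the replicate block 0 genes passed (2438 at an unadjusted p-value under 0.05), and Hamp had -0.81. Library totals alone shifted the median log2 fold change of all genes to -0.10. Of the genes with an unadjusted p-value under 0.05, 1597 of 2916 were higher by edgeR, 1102 of 2884 with upper quartile scaling and 952 of 3044 with library totals alone.

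Bmp6, Id1, Slc40a1, Tfrc, Fth1 and Ftl1 kept their sign in all 14 alternatives and Hamp in all 15. Without 1 library, Hamp ranged from -1.08 to -0.48. Hamp2 changed sign with at least 10 counts in every library (-0.0015), upper quartile scaling (-0.0428), library totals (-0.0826), limma-voom (-0.63) and the block (-0.43), and ranged from -1.09 to 0.53 without 1 library. Without 1 library Tfr2 ranged from -0.0710 to 0.0264 and Trf from -0.17 to 0.14. Summing ferritin copies was not run, since Fthl17, the only other row found by the name of a ferritin chain, had 0 counts. Bmp6 and Hamp2 rest on few counts, 67 to 240 and 28 to 187 per library.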

Other observations

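Genes of heme handling, which supply or consume much of the iron of a hepatocyte, had a median near 0, with single genes higher and lower. Of 20 genes, 19 were tested, whose log2 fold changes had a median of -0.05, and 1 was higher and 2 lower at an unadjusted p-value under 0.05. By edgeR, DESeq2 and limma-voom 0 of the 19 passed the adjusted threshold, and edgeR without Nr2e3-/- replicate 1 called 3 higher (Hmox1, Hp and Hpx). Alas1, the rate-limiting enzyme of heme synthesis in liver, had 900, 921 and 962 CPM in WT and 440, 679 and 758 CPM in Nr2e3-/- libraries, without overlap (log2 fold change -0.57, adjusted p = 0.18 from edgeR). Blvrb, a biliverdin reductase, had -0.31 (adjusted p = 0.163), and Hpx, the heme carrier of plasma, had 0.85 (adjusted p = 0.231) with its highest level, 9597 CPM, in Nr2e3-/- replicate 2.

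Of 10 genes of ferroptosis and iron-linked redox control, 9 were tested, with a median of -0.22, and 1 was higher and 1 lower at an unadjusted p-value under 0.05. By edgeR 0 passed the adjusted threshold, against 1 higher by DESeq2 (Acsl4), and 2 higher (Acsl4 and Gclc) and 1 lower (Nfe2l2) by limma-voom. Without Nr2e3-/- replicate 1 edgeR called 3 higher (Acsl4, Gclc and Slc3a2) and 1 lower (Aifm2), where 21.8% of all genes were called. The median was -0.11 without Nr2e3-/- replicate 3 and -0.14 without Nr2e3-/- replicate 1. Acsl4, which primes membrane lipids for peroxidation, had 221, 155 and 175 CPM in WT and 289, 462 and 460 CPM in Nr2e3-/- libraries (log2 fold change 1.13, adjusted p = 0.0930 from edgeR). Nfe2l2, the antioxidant regulator NRF2, had -0.47 (adjusted p = 0.174). Gclc, a glutathione synthesis enzyme, had 366 to 393 CPM in WT, and Nr2e3-/- replicates 1, 2 and 3 lay at 271, 1192 and 863 CPM, on both sides of the WT range.

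Markers of other cells also differed between libraries. Neutrophil markers summed to 1.595 to 2.88 CPM in WT and 2.38, 22.7 and 13.2 CPM in Nr2e3-/- replicates 1, 2 and 3. S100a8 and S100a9 had 8.61 and 9.65 CPM in replicate 2. Of the untested markers, Retnlg had 4 to 5 counts in WT and 4, 97 and 30 in Nr2e3-/- replicates 1, 2 and 3. Ngp and Mpo reached 11 and 7 counts in replicate 2, and Elane and Camp had 3 counts or fewer in every library. DESeq2 called S100a8, S100a9 and Retnlg higher. T and B cell markers summed to 2.96 to 5.51 CPM in WT and 1.03 to 3.04 CPM in Nr2e3-/- libraries, and 0 of 6 had a positive change. Stellate cell markers summed to 463 to 537 CPM in WT and to 297 to 496 CPM in Nr2e3-/- libraries. By edgeR and DESeq2 0 of 10 passed the adjusted threshold (0 and 1 at an unadjusted p-value under 0.05), while limma-voom, and edgeR without Nr2e3-/- replicate 1, each called 5 of 10 lower (Col3a1, Colec11, Dcn, Ecm1 and Reln). Bile duct markers summed to 57.3 to 119 CPM in WT and 69.1 to 429 CPM in Nr2e3-/- libraries. Most of that sum was Spp1 alone, at 46.0 to 107 CPM in WT and 56.3 to 410 CPM in Nr2e3-/- libraries. Of 5 tested bile duct markers 3 had a positive change, while Krt7 (-0.29) and Sox9 (-0.21) had a negative one. The part of these cell types in the differences of the iron genes was not tested.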
